A study of Homo sapiens with 6 samples.

Results

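The transcriptome of BT474 cells carrying the short variant 4 of the long noncoding RNA NR2F1-AS1 (BT474-Var4 cells) was compared with that of BT474 cells carrying the empty plasmid (Control). The comparison rests on 4 of the 6 arrays of the series, 2 of BT474-Var4 and 2 of Control, chosen by their labels alone. The remaining 2 arrays, of BT474-Var1 cells with the long variant 1, entered the same fit for its estimate of the spread and are used only to say where a change also separated the variants. BT474 is an established human breast cancer line that is positive for estrogen receptor (ER) and HER2. Control cells were transfected with empty pcDNA3.1 and BT474-Var4 cells with pcDNA3.1 holding NR2F1-AS1 variant 4. Apart from antibiotic selection neither received a further agent, and both were grown in RPMI-1640 with serum. The study states that variant and control cells alike were selected with antibiotic after nucleofection. It describes the variant cells as reduced to a few survivors and regrown as colonies. The BT474-Var4 population may therefore descend from few cells, and this cannot be told apart from an effect of the RNA itself. The study's methods place variant 4 in a pcDNA3.1 plasmid that also carries green fluorescent protein, and list a separate empty plasmid for each variant. Which empty plasmid the Control arrays represent is not given in the sources used here. Nothing says that replicates A and B were separate cultures, so the p-values measure only the spread between these arrays, which may be technical. The question was which genes differ in level once variant 4 is expressed, including genes tied to dormancy and to the hormone receptors.

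NR2F1-AS1 is transcribed from the strand opposite to NR2F1, a nuclear receptor gene linked to tumor dormancy, and its locus gives rise to several transcript variants. Dormant or quiescent cells are characterized by low transcription of E2F target genes, which drive DNA replication, and of mitotic genes, and often by higher CDK inhibitors such as p21. BT474 cells are luminal, and in such cells many secretory genes and the progesterone receptor gene depend on ER. Chemokine genes are classically controlled by NF-kappaB, a transcription factor released by inflammatory signals, while interferon-stimulated genes are controlled by transcription factors that interferon receptors activate.

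Each array measured RNA with 60-base probes. A level is given as the log2 intensity of a probe relative to the array's 75th percentile of intensities, so 0 is that percentile, and a difference is BT474-Var4 minus Control on this log2 scale with its standard error. Levels are compared between arrays and never between probes. A probe or gene passed at a Benjamini-Hochberg adjusted p under 0.05 in limma and was called when it also differed by 2-fold or more. For a gene with several probes, the tested probe with the highest mean was used unless stated. For genes named by the size of their change it was instead the called probe with the largest change. That was a dimmer probe for ATP2C1, MUC19, MIR205HG and LINC01197. Where both arrays of a group were not well above background, the change is a bound, written as at least N-fold. It was computed against the dimmest measured signal of the array, or against the reading itself where that was higher. For RFPL1, IL6 and UGT2B11 the readings were higher, so the bound equals the fitted change. A bound holds only for this processing. Over the alternatives that left out no array, CXCL8 differed by 0.46 to 4.25 and OAS1 by 0.23 to 3.2.

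The NR2F1-AS1 probes check the labels first. The array holds 4 of them on chromosome 5, minus strand, build hg19. Their positions show which part of the locus each measured, and their sequences are listed below. The array's annotation assigns the first to variant 4, the second to variant 6 and the last pair to variant 1. The second, at chr5:92889467-92889526, lies on the 5′ side of the variant 4 probe, at chr5:92877924-92877983, and the variant 1 probes lie at chr5:92746995-92747054 and chr5:92745544-92745603.
A_24_P51080: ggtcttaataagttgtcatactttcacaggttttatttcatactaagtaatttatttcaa
A_22_P00006111: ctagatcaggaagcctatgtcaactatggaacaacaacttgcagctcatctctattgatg
A_22_P00006112: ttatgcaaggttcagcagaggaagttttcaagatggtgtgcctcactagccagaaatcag
A_19_P00320140: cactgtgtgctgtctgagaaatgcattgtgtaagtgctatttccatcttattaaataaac

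The variant 4 probe of NR2F1-AS1 read -6.42 and -4.25 on the Control arrays, of which only replicate B was well above background, and 1.67 and 1.50 on the BT474-Var4 arrays. Its fitted difference of 6.92 ± 0.72 (adjusted p = 0.00739) includes the Control A reading below background. With that reading set to the dimmest measured signal of its array, the level was at least 57.2-fold higher. The probe annotated to variant 6 read -5.76 and -4.16 in Control, again measured only in replicate B, and 3.01 and 3.02 in BT474-Var4, a fitted difference of 7.98 ± 0.53 (adjusted p = 0.00348) and by the same bound at least 150-fold higher. Both groups were far apart at each of these probes. The variant 1 probes showed no such gap. One read -4.31 and -3.61 in Control and -4.15 and -4.11 in BT474-Var4, with only Control replicate B above background, and the other was not well above background on any of the 4 arrays. In BT474-Var4 cells the RNA was thus seen by the variant 4 and variant 6 probes and not by the variant 1 probes. The probes do not separate RNA from the plasmid from RNA of the chromosomal locus, and whether the variant 6 probe sequence lies within the transfected insert was not tested. NR2F1, the neighboring gene on the other strand, read -1.64 and -1.86 in Control and -2.58 and -2.65 in BT474-Var4, a difference of -0.87 ± 0.16 (adjusted p = 0.0246). NR2F1 was lower on both BT474-Var4 arrays, but it no longer passed when any 1 of the 4 arrays was left out, where its adjusted p rose as far as 0.11.

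**Figure D1:**
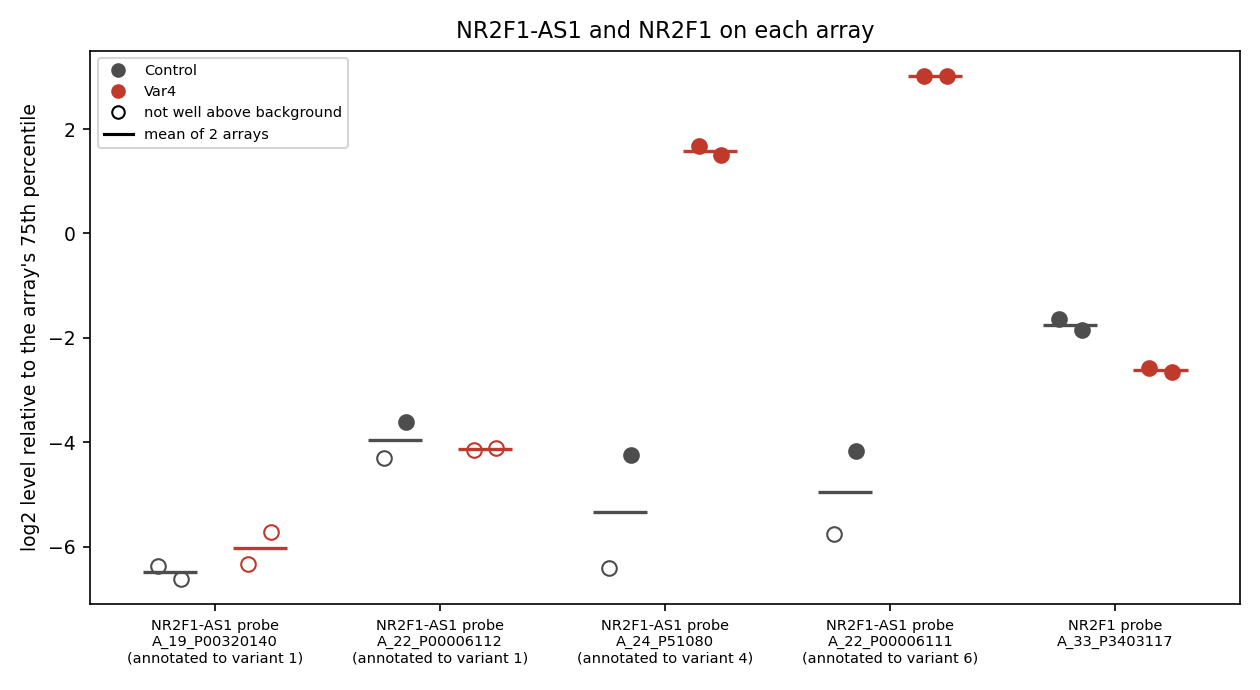
Level of the 4 NR2F1-AS1 probes and of NR2F1 on each Control and BT474-Var4 array, as log2 intensity relative to the array's 75th percentile on the vertical axis. Open points were not well above background and lines mark the mean of the 2 arrays of a group. At the variant 4 and variant 6 probes BT474-Var4 lies at least 57.2-fold and 150-fold above Control, where only replicate B was measured, the variant 1 probes show no such gap, and NR2F1 is lower in BT474-Var4.

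Across the array, 31011 of 58201 probes were tested, those measured above background on both Control arrays, on both BT474-Var4 arrays, or on all 4. Of these, 501 probes (1.62%) were called higher and 488 (1.57%) were called lower in BT474-Var4 cells. Counted by gene name, 409 of 23973 genes (1.71%) were called higher and 367 (1.53%) lower, while 2574 (10.7%) passed higher and 3761 (15.7%) passed lower at any size of change. The median difference over all genes tested was -0.08. The calls in each direction had a different makeup. Of the higher probes 385 were measured on all 4 arrays and 64 on no Control array, whereas of the lower probes 188 were measured on all 4 arrays and 233 on no BT474-Var4 array. Detection reached 54.3% and 57.5% of probes in Control replicates A and B and 53.1% and 47.6% in BT474-Var4 replicates A and B. The lowest value thus belongs to BT474-Var4 replicate B, without which 389 probes were called lower.

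The counts by gene depend on the number of arrays and on scaling. Without Control A, Control B, Var4 A or Var4 B, genes passed higher numbered 792, 808, 1156 and 1071, and genes passed lower 738, 701, 1637 and 1236. Lower probe calls numbered 280, 284, 548 and 389 in the same order. A median shift in place of the 75th percentile shift moved the median of all genes to 0.05 and the probe calls to 672 higher and 348 lower, and quantile normalization gave 536 higher and 331 lower. With all probes tested and no filter, 349 genes passed higher and 217 lower. For this reason most counts of list members are given below with their range when 1 of the 4 arrays is left out. Each count is to be read beside the shares over all genes tested. Of these genes 10.7% passed higher and 15.7% lower, and 1.71% were called higher and 1.53% lower.

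**Figure D2:**
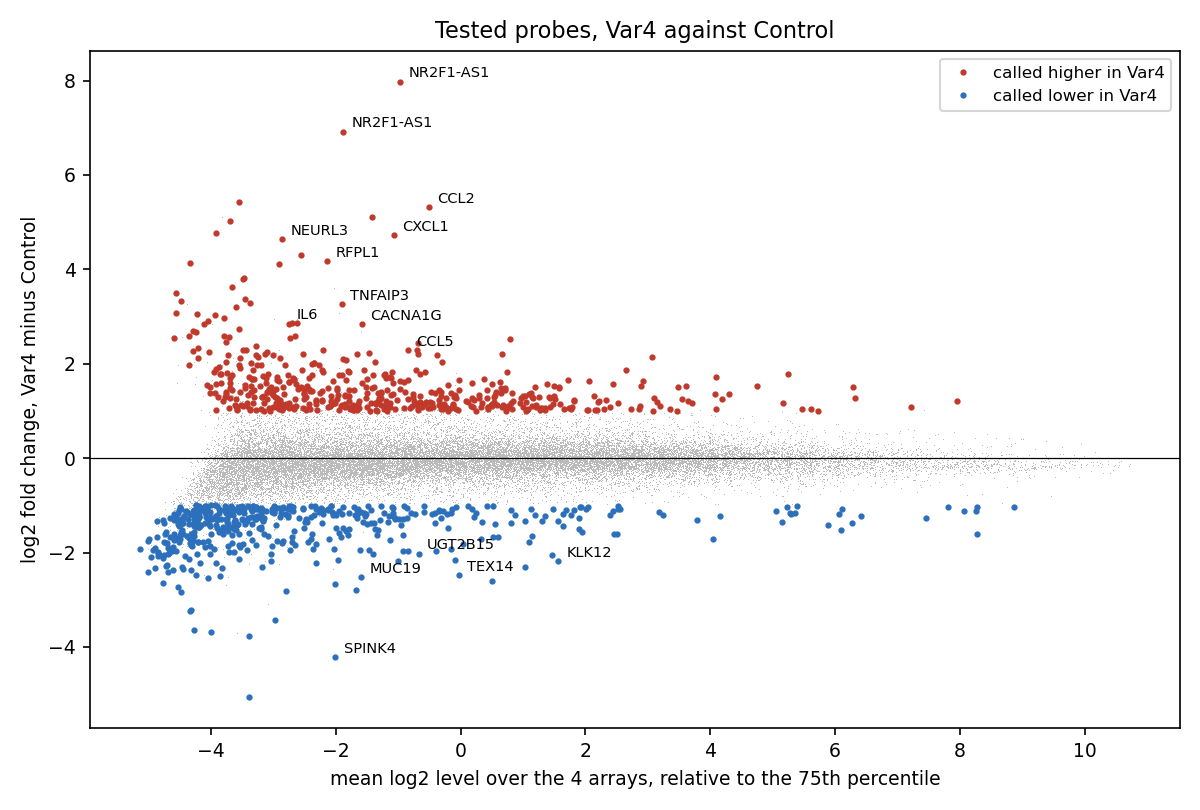
Each point is a tested probe, with its mean level over the 4 arrays (log2 intensity relative to the 75th percentile) on the horizontal axis and the log2 difference of BT474-Var4 minus Control on the vertical axis. The 501 probes called higher and the 488 called lower are colored, and the remaining probes are gray.

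Among genes measured on all 4 arrays, the largest rise was in CCL2, the chemokine that recruits monocytes. CCL2 read -3.19 and -3.14 in Control and 2.15 and 2.15 in BT474-Var4, a difference of 5.32 ± 0.05 or 39.9-fold (adjusted p = 0.00017). CXCL1, a neutrophil chemokine, read -3.62 and -3.26 in Control and 1.42 and 1.17 in BT474-Var4 and differed by 4.73 ± 0.15 (adjusted p = 0.00165), with a second probe at 2.11. TNFAIP3, which encodes the NF-kappaB inhibitor A20, read -3.46 and -3.60 in Control and -0.30 and -0.22 in BT474-Var4 and differed by 3.27 ± 0.07 (adjusted p = 0.00161). In all 3 genes the replicates lay close together, but the size of the change depended on the processing. Over the alternatives that left out no array, the CCL2 difference ran from 2.96 to 5.45. For CXCL1 it ran from 2.19 to 4.86 and for TNFAIP3 from 1.21 to 3.39. The groups did not overlap, but that was part of the rule that chose these genes. It held for 16800 of all 23973 genes tested. The other rises by this rule were CACNA1G (2.84), a T-type calcium channel, FGD5 (2.53), an exchange factor for Cdc42, CRYAB (2.43), the small heat shock protein alpha-B-crystallin, ATP2C1 (2.29), a Golgi calcium pump, and APOBEC3A (2.29), a cytidine deaminase. They continued with CCL5 (2.28), a T-cell chemokine, UMODL1 (2.23), BST2 (2.21), the antiviral protein tetherin, and ECM1 (2.21), an extracellular matrix protein. FGD5 and UMODL1 were not uniform over their probes. A second FGD5 probe, below background in BT474-Var4, read -0.70 (adjusted p = 0.139), and the other UMODL1 probes gave 0.61 and -0.68, neither past the threshold. The brighter ATP2C1 probe rose by only 0.61.

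Several genes were not measurable in Control and clearly measured in BT474-Var4. TNF, the inflammatory cytokine, read -5.03 and -4.37 in Control and -0.32 and -0.47 in BT474-Var4, at least 15.1-fold higher (adjusted p = 0.00278), and PGF, the placental growth factor of the VEGF family, was at least 11.6-fold higher. RFPL1 was at least 18.0-fold higher and NEURL3, a ubiquitin ligase, at least 14.3-fold. IL6 was at least 7.21-fold higher (adjusted p = 0.0116) and DCN, the matrix proteoglycan decorin, at least 7.11-fold (adjusted p = 0.0111). IL6 lost the threshold when any 1 of the 4 arrays was left out and DCN when Var4 A or Var4 B was, with adjusted p up to 0.0687 and 0.0542.

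The falls measured on all 4 arrays were led by MUC19, TEX14 and KLK12. TEX14, a germ cell gene, read 1.15 and 1.27 in Control and -1.31 and -1.23 in BT474-Var4, a difference of -2.47 ± 0.07 (adjusted p = 0.00161). KLK12, a secreted kallikrein protease, read 2.70 and 2.63 in Control and 0.49 and 0.46 in BT474-Var4 and differed by -2.19 ± 0.06 (adjusted p = 0.00161). MUC19, a gel-forming mucin, differed by -2.53 ± 0.11, and its other probes lay between -2.71 and -2.30 (adjusted p up to 0.0917). These genes too were chosen among those whose groups did not overlap. KLK11 (-2.18), A2MP1 (-2.17), CXCL17 (-2.06), a mucosal chemokine, HLA-DQA1 (-2.03), a class II antigen presentation gene, and UGT2B15 (-2.02), a steroid-conjugating enzyme, followed. The list ended with SNORA30 (-1.97), MIR205HG (-1.97), the host gene of miR-205, KRT1 (-1.96), a keratin of cornifying epithelium, and PHGR1 (-1.94). One of the MIR205HG probes gave -0.11 (adjusted p = 0.406), and a second HLA-DQA1 probe -1.68 (adjusted p = 0.0734). Of genes lost below background in BT474-Var4, SPINK4, a secreted protease inhibitor of goblet cells, read 0.11 and 0.09 in Control and -4.10 and -4.11 in BT474-Var4, at least 15.5-fold lower (adjusted p = 0.000973). KCNAB3 was at least 5.73-fold lower, ZNF252P-AS1 at least 5.29-fold, UGT2B11, a relative of UGT2B15, at least 3.87-fold, HEPACAM2 at least 3.68-fold and LINC01197 at least 3.52-fold. The LINC01197 value is from its dimmer probe, and the brighter one was still measured on both BT474-Var4 arrays. ZNF252P-AS1 and HEPACAM2 no longer passed when any 1 of the 4 arrays was left out (adjusted p up to 0.111 and 0.0723), and a second LINC01197 probe gave -0.39.

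The inflammatory genes were described as lists. Of 25 cytokine and chemokine genes tested, 14 passed higher and 3 lower, 10 were called higher and 2 lower, and the median difference was 0.76 against -0.08 over all genes. When 1 array was left out, 9 to 11 passed higher and 2 lower, and 7 to 9 were called higher. The calls were 5 higher and 1 lower with normexp background correction, and 6 higher without a filter. Besides CCL2, CXCL1, TNF, IL6 and CCL5, CXCL8 (interleukin-8) was at least 4.30-fold higher and CXCL10, an interferon-induced T-cell chemokine, at least 5.21-fold. CXCL14, an epithelial chemokine, read 4.38 and 4.32 in Control and 6.14 and 6.12 in BT474-Var4 and differed by 1.77 ± 0.05 (adjusted p = 0.00162). CXCL2 (1.49) and CX3CL1 (1.32) complete the called rises. The called falls were CXCL17 and CXCL12 (-1.08), the ligand of CXCR4, and the other CXCL12 probes ranged from -1.12 to -0.05. The chemokines therefore moved in both directions.

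Of 23 NF-kappaB subunits and target genes, 10 passed higher and 3 lower, with 3 called higher, a median of 0.19, and 6 to 8 passed higher and none lower when 1 array was left out. The called members were TNFAIP3, BIRC3 and RELB. BIRC3, an inhibitor of apoptosis, read -0.91 and -0.78 in Control and 0.82 and 0.79 in BT474-Var4 and differed by 1.65 ± 0.06 (adjusted p = 0.00196). RELB, a subunit of the alternative pathway, read 2.01 and 2.19 in Control and 3.79 and 3.70 in BT474-Var4 and differed by 1.64 ± 0.08 (adjusted p = 0.0026). NFKBIA, the inhibitor IkappaB-alpha, passed below 2-fold and read 4.95 and 4.87 in Control and 5.87 and 5.81 in BT474-Var4, a difference of 0.93 ± 0.06. For each of these genes both BT474-Var4 arrays lay above both Control arrays, as they did for every probe called higher.

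Of 46 interferon-stimulated genes tested, 28 passed higher and 1 lower, 13 were called higher, and the median was 0.43. Without 1 of the 4 arrays, 17 to 20 passed higher, 0 passed lower and 12 or 13 were called higher. With normexp background correction 30 passed higher but 2 were called. IFIT1, which binds viral RNA, read -1.56 and -1.36 in Control and 0.75 and 0.69 in BT474-Var4 and differed by 2.18 ± 0.09 (adjusted p = 0.00198). BST2 read -3.51 and -3.76 in Control and -1.33 and -1.51 in BT474-Var4 and differed by 2.21 ± 0.11 (adjusted p = 0.0026), with a second probe at 0.85. RSAD2, the antiviral enzyme viperin, read -3.24 and -3.49 in Control and -1.23 and -1.46 in BT474-Var4 and differed by 2.02 ± 0.19 (adjusted p = 0.00581). OAS1, an RNA sensor, was at least 2.56-fold higher. The remaining called members were IFIT2 (1.83), OASL (1.71), IFI44 (1.65), MX1 (1.55), IFI6 (1.34), IFITM1 (1.24), ISG15 (1.16), IRF9 (1.03) and IRF1 (1.03), the latter pair being transcription factors of the pathway. HERC6 passed lower (-0.65), and TRIM25 did not pass (-0.18, adjusted p = 0.138). Of 25 antigen presentation genes 4 passed higher and 2 lower (1 or 2 higher and 1 lower without 1 array), with HLA-DQA1 the called member.

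Because 28 of these 46 members passed higher, the 250 bases before their start sites were searched, on both strands, in RefSeq GRCh38.p14. The interferon-stimulated response element GAAANNGAAA was found in 3.71% of 27305 genes and in 3.39% of the 12580 tested genes with an entry. It was present in 8 of 11 called interferon members (72.7%) and in 14 of 26 other tested members (53.8%). A match is a description of the letters and not a site. Upstream sequences of the called members BST2 (chr19:17405631-17405880, minus strand), IFIT1 (chr10:89392373-89392622, plus strand) and RSAD2 (chr2:6877527-6877776, plus strand) are shown with the matches in capitals. They were picked by size of rise among called members, measured on both Control arrays, that held a match.
BST2: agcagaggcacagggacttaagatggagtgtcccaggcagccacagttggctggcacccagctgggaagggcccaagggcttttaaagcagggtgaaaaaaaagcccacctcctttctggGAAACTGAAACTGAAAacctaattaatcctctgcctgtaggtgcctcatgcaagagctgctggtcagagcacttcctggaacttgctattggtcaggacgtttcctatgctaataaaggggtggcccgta
IFIT1: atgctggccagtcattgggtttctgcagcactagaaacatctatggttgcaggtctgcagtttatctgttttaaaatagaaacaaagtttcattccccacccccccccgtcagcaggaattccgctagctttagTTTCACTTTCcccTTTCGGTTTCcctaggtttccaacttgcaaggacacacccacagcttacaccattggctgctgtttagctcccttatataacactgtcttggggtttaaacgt
RSAD2: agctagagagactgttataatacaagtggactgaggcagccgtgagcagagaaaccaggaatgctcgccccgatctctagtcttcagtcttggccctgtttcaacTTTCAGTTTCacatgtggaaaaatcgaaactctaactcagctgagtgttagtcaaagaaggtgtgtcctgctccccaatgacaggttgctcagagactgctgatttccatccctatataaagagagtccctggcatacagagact

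The kappaB consensus was found in 6.28% of the 27305 genes and in 7.87% of the tested ones. It was present in 4 of 7 called cytokine genes with an entry and in 4 of 10 other tested ones. It was found in both called NF-kappaB members with an entry, TNFAIP3 and BIRC3, and in 11 of the 18 others, so the uncalled members hold it as well. Upstream sequences are shown for CXCL1 (chr4:73869143-73869392), TNFAIP3 (chr6:137867009-137867258) and BIRC3 (chr11:102317234-102317483), all on the plus strand, with the matches in capitals. These too were picked among called members that held a match, so members without a match or an entry were passed over.
CXCL1: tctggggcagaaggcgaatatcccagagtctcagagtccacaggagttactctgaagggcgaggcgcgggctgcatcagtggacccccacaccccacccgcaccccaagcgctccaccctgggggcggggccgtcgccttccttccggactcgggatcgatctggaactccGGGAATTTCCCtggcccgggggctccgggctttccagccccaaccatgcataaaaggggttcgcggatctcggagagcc
TNFAIP3: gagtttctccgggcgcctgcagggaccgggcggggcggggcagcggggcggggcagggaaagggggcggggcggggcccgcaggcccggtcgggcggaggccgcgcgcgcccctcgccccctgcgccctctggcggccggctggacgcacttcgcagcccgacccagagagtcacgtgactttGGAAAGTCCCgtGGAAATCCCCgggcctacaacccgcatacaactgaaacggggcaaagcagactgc
BIRC3: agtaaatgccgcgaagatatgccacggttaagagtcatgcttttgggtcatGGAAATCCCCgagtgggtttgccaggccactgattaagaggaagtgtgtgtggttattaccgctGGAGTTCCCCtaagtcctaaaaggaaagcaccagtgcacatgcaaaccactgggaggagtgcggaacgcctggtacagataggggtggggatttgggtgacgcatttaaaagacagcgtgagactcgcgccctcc

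Most of the heat shock protein genes passed higher. Of 19 heat shock proteins, 16 passed higher and 0 lower, 7 were called higher, and the median was 0.50. The 7 calls held in number without each of the 4 arrays, where 8 to 12 passed, and 5 were called with normexp. CRYAB read -1.98 and -1.80 in Control and 0.56 and 0.52 in BT474-Var4 and differed by 2.43 ± 0.18 (adjusted p = 0.00411). HSPA1A and HSPA1B, near-identical inducible HSP70 genes whose probes may share RNA, differed by 1.22 ± 0.05 and 1.27 ± 0.05. HSPA4L (1.82), DNAJB4 (1.37), a cochaperone, BAG3 (1.12) and HSPH1 (1.09) complete the calls. HSP90AA1 passed with a small difference (0.27), but in none of the 6 fits that left out an array (adjusted p up to 0.112). The heat shock element core GAANNTTC, which 7.05% of the 27305 genes and 6.05% of the tested ones hold, was found in 2 of 6 called members and 9 of 11 others. Of 34 genes of the unfolded protein and integrated stress response, 12 passed higher and 3 lower (4 to 8 higher without 1 array), including PPP1R15A (1.09), a stress phosphatase subunit, and the endoplasmic reticulum chaperone HSPA5 (1.01), while ATF4 gave 0.07 (adjusted p = 0.389).

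**Figure D3:**
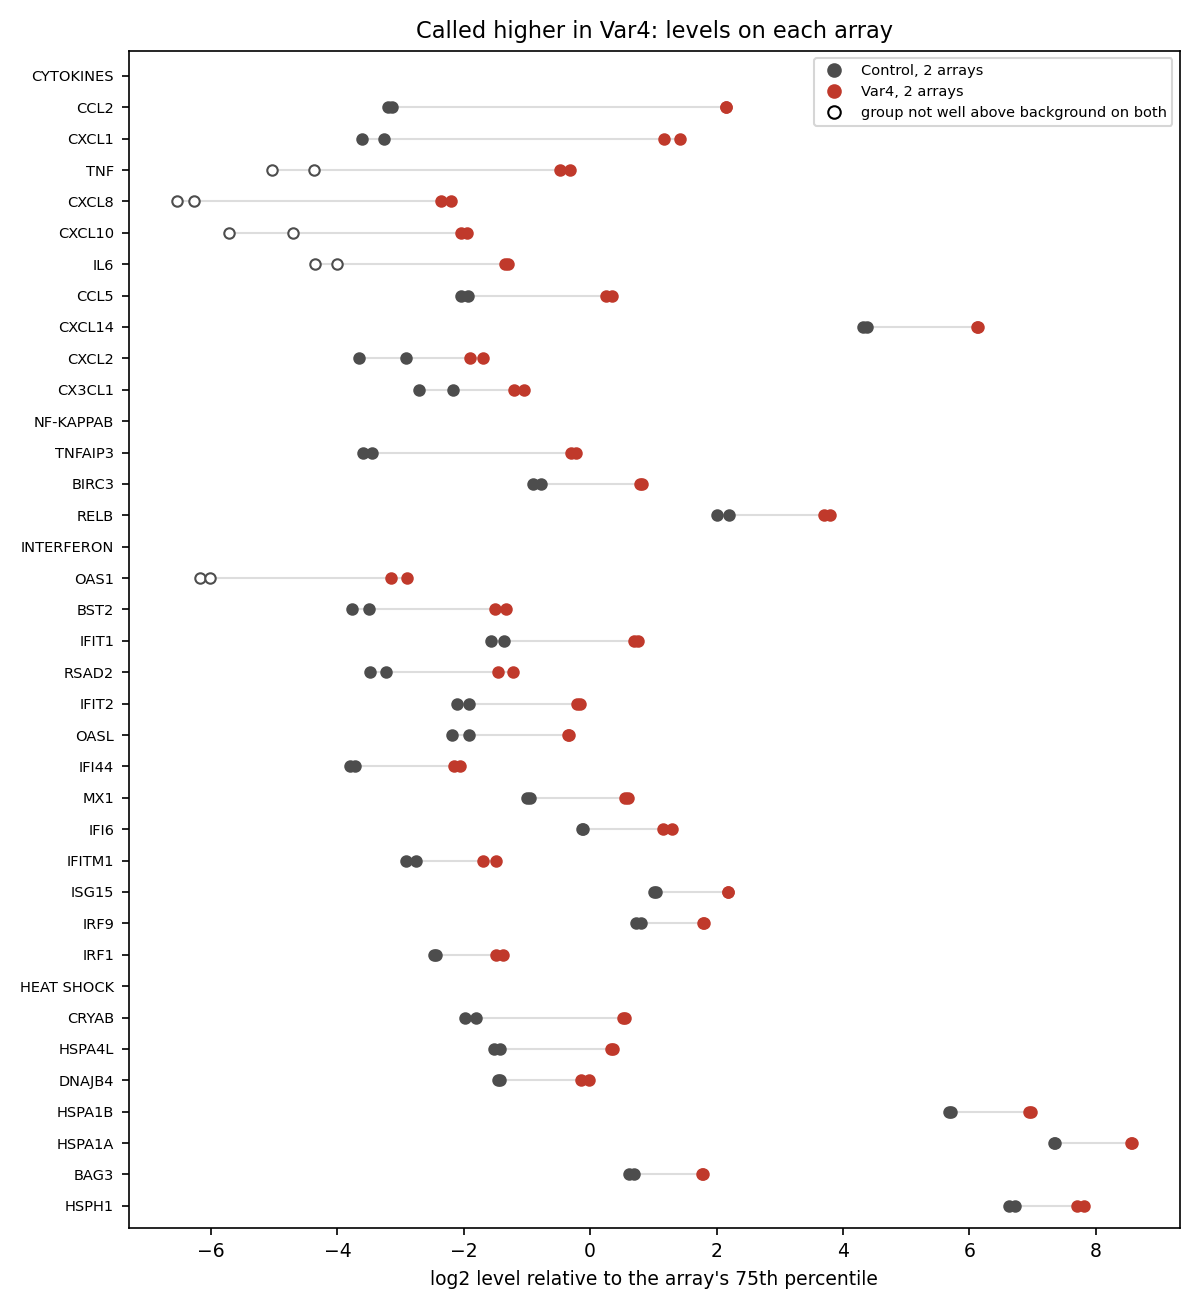
Level of called cytokine, NF-kappaB, interferon and heat shock genes on each Control and BT474-Var4 array (log2 intensity relative to the array's 75th percentile). Each point is 1 array, and open points belong to a group that was not well above background on both arrays. CCL2 shows the widest gap, at 5.32. Both BT474-Var4 arrays lie above both Control arrays for each gene drawn, as for every probe called higher.

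Proliferation genes were lower by small amounts. Of 55 E2F targets and DNA replication genes, 42 passed lower and 0 higher, none was called, and the median was -0.37. Of 61 genes of mitosis and the G2/M checkpoint, 48 passed lower and 0 higher, with no call and a median of -0.41. These counts rest on all arrays. Without Control A, Control B, Var4 A or Var4 B, 9, 11, 23 and 17 E2F genes and 12, 12, 24 and 19 mitotic genes passed lower, while the medians stayed between -0.42 and -0.37. With every probe tested and no filter, 2 E2F genes and 1 mitotic gene passed lower. MKI67, the gene of the proliferation marker Ki-67, read 2.18 and 2.06 in Control and 1.40 and 1.30 in BT474-Var4 and differed by -0.77 ± 0.07 (adjusted p = 0.00546), with other probes at -0.49 and -0.31, the latter not past the threshold (adjusted p = 0.0559). TK1, thymidine kinase, differed by -0.51 ± 0.05 (adjusted p = 0.00662, and 0.0507 without Control A), and CKS1B gave -0.15 (adjusted p = 0.0814). Of 56 replication-dependent histone genes, whose RNAs accumulate in S phase, 33 passed lower and 1 higher, with a median of -0.36 and 3 to 16 passing lower without 1 array. HIST1H2AG was the called histone (-1.21), but a second probe gave 0.41, and near-identical histone genes may share signal. The direction of each of these 3 lists was the same under the median shift, where 27 E2F, 26 mitotic and 20 histone genes passed lower.

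CDK inhibitors and cyclins of G1 were mixed, with 5 of 19 passed higher and 7 lower. These counts depended on every array, since without 1 of the 4 only 1 or 2 passed higher and 0 to 3 lower. CDKN1A, which encodes p21, read -3.11 and -3.54 in Control and -2.25 and -2.08 in BT474-Var4 and differed by 1.16 ± 0.17 (adjusted p = 0.0147). Leaving out Control B, Var4 A or Var4 B raised its adjusted p to as much as 0.0701. CDKN1B, which encodes p27, gave -0.05 ± 0.06 (adjusted p = 0.591). CDK6, a G1 kinase, rose by 1.03 ± 0.05, whereas CDK4 gave -0.31 and no longer passed when any 1 of the 4 arrays was left out (adjusted p up to 0.144) or under quantile normalization or the median shift. Of 26 p53 target genes 16 passed higher and 1 lower (5 to 7 higher without 1 array), with a median of 0.32. FAS, the death receptor, was fitted at 2.73 ± 0.60 with Control measured on 1 array (adjusted p = 0.0355) and lost the threshold without either BT474-Var4 or either BT474-Var1 array (up to 0.126). GDF15, a stress cytokine, differed by 1.03 ± 0.05.

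PGR and ESR1 were lower in BT474-Var4 cells. PGR, the progesterone receptor gene, read 4.77 and 4.77 in Control and 3.58 and 3.53 in BT474-Var4 and differed by -1.22 ± 0.05 (adjusted p = 0.00215), with a second probe at -1.32. ESR1, which encodes ER alpha, read 2.11 and 2.18 in Control and 1.64 and 1.71 in BT474-Var4 and differed by -0.47 ± 0.07 (adjusted p = 0.0159). The PGR groups were over 2-fold apart, while ESR1 was lower by less, its other probes gave -0.06 and -0.85, and it did not pass when any 1 of the 4 arrays was left out (adjusted p up to 0.086). XBP1, a luminal transcription factor, fell by 0.81 on the log2 scale. Of 18 steroid receptor and luminal transcription factor genes, 4 passed higher and 6 lower (1 or 2 higher and 2 to 4 lower without 1 array). ERBB2, which encodes HER2 and is amplified in BT474, read 8.63 and 8.59 in Control and 8.60 and 8.58 in BT474-Var4 (difference -0.02 ± 0.05, adjusted p = 0.84), and of 18 genes around it 3 passed higher and 1 lower (at most 1 in each direction without 1 array). The ERBB2 levels were nearly the same on all 4 arrays.

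Of 30 estrogen-induced genes, 14 passed lower and 8 higher, 6 were called lower and 2 higher, and the median was -0.25. Without 1 array, 8 to 13 passed lower, 3 or 4 passed higher and 5 to 7 were called lower. TFF1, a trefoil peptide and classical ER target, read 8.79 and 8.79 in Control and 7.75 and 7.77 in BT474-Var4 and differed by -1.03 ± 0.05 (adjusted p = 0.0026). The other called falls were PGR, ELOVL2 (-1.72), a fatty acid elongase, SERPINA1 (-1.57), KCNK5 (-1.20) and CXCL12 (-1.08). GREB1, a cofactor of ER, fell by 0.85 on the log2 scale. FOS (1.20) and WISP2 (1.15) were called higher, so the list did not move one way. ELOVL2, measured on 1 BT474-Var4 array, lost the threshold once Control A or Control B was left out, with an adjusted p of at most 0.101.

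Mucins and secretory products of the luminal cell were often lower. Of 19 genes 10 passed lower and 2 higher, 6 were called lower, and the median was -0.30. Without 1 array 7 to 9 passed lower and 4 to 6 were called, and 2 were called lower under the median shift. PIP, the prolactin-induced protein, read 3.34 and 3.27 in Control and 1.77 and 1.63 in BT474-Var4 and differed by -1.61 ± 0.07 (adjusted p = 0.0022). MUC5B (-1.55), SCGB1D2 (-1.13), a lipophilin, MUCL1 (-1.12) and AZGP1 (-1.01) followed, and TFF1 is counted here too. TFF3 passed with -0.43 but not without Control A, Control B or Var4 B (adjusted p up to 0.0628), and MUC1 passed higher with 0.63. MUC5B did not pass once Control A or Control B was left out, with an adjusted p of at most 0.0754. Luminal epithelial markers as such were mixed, with 6 of 25 passed higher, 7 lower, none called and a median of -0.01 (0.11 under the median shift). Without 1 array, 1 to 3 passed higher and 0 to 2 lower, and KRT19 gave -0.07.

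Lipid synthesis genes often passed lower. Of 35 genes of cholesterol and fatty acid synthesis, 23 passed lower and 2 higher, 2 were called lower, and the median was -0.43. Without Control A, Control B, Var4 A or Var4 B, 7, 9, 15 and 12 passed lower, and 2 did without a filter. Of the called members, ACACB, a mitochondrial acetyl-CoA carboxylase, read -0.69 and -0.39 in Control and -1.63 and -1.88 in BT474-Var4 and differed by -1.22 ± 0.14 (adjusted p = 0.00878). FADS1, a fatty acid desaturase, fell by 0.99 on the log2 scale, and ACACA, the cytosolic carboxylase, gave 0.01. Ribosomal protein genes had 30 of 74 passed lower and a median of -0.20, but only 6 passed lower under quantile normalization, where the median was -0.04, and 2 to 5 did without 1 array. The ribosomal count therefore depended on the scaling and on each of the arrays.

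**Figure D4:**
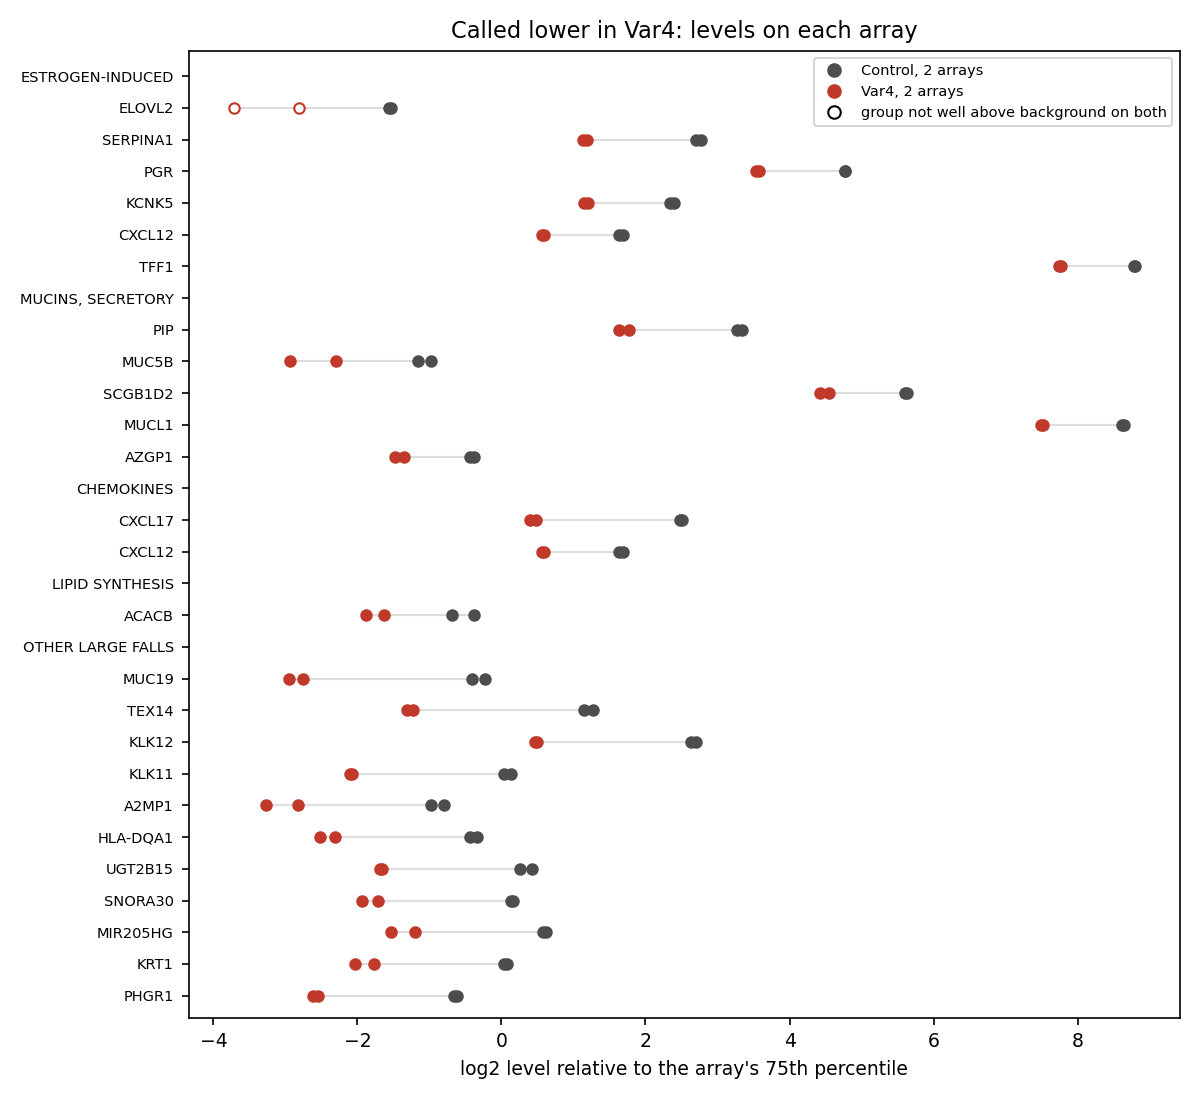
Level of called estrogen-induced, secretory, chemokine, lipid synthesis and other fallen genes on each Control and BT474-Var4 array (log2 intensity relative to the array's 75th percentile). Each point is 1 array, and open points belong to a group that was not well above background on both arrays. PGR reads 4.77 and 4.77 in Control against 3.58 and 3.53 in BT474-Var4. The groups are separate for each gene drawn, as for every probe called lower.

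Adhesion, matrix and signaling genes rose in part. Of 38 genes of epithelial-mesenchymal transition, 14 passed higher and 2 lower, 6 were called higher, and the median was 0.16 (7 to 9 passed higher without 1 array, and 3 were called with normexp). PLAU, the urokinase protease, read -1.57 and -1.72 in Control and 0.28 and 0.17 in BT474-Var4 and differed by 1.87 ± 0.08 (adjusted p = 0.00215). IGFBP3 (1.57), an IGF-binding protein, TGFBI (1.52) and COL1A1 (1.03) were also called. CDH11, a mesenchymal cadherin, was fitted at 2.19 with Control measured on 1 array and lost the threshold when any 1 of the 4 arrays was left out (adjusted p up to 0.13). CTGF (1.42), also measured on 1 Control array, lost it in 5 of the 6 fits that left out an array (adjusted p up to 0.135).

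Of 28 matrix proteases and inhibitors, 5 were called higher and 0 lower. MMP1, a collagenase, was at least 3.56-fold higher, MMP16 at least 2.72-fold, and PLAT, the tissue plasminogen activator, differed by 1.76 ± 0.15. The rises numbered 5 whichever of the 4 arrays was left out and 1 with normexp, and 1 member was called lower without Control A. Of 25 integrins and laminins, 11 passed higher and 4 lower, and 4 were called higher, among them ITGB8 (1.45), ITGB6 (1.29) and ITGB2 (1.04). Without 1 array 3 to 5 passed higher, at most 1 passed lower and only 1 or 2 were called, and the integrin calls lost the threshold in at least 3 of the 6 fits that left out an array (adjusted p up to 0.0978). Among 19 basal and myoepithelial genes 9 passed higher and 1 lower (4 or 5 higher without 1 array), and OXTR, the oxytocin receptor, read -0.26 and -0.31 in Control and 1.33 and 1.25 in BT474-Var4, a difference of 1.57 ± 0.07 (adjusted p = 0.00241). KRT4 (1.27) and KRT80 (1.24) were called higher among 17 keratins and KRT1 lower.

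Of 38 TGF-beta and BMP pathway genes, 13 passed higher and 5 lower, 6 were called higher, and the median was 0.14. Without 1 array 8 to 10 passed higher, 1 to 3 lower and 5 or 6 were called higher, and 2 were with normexp. ID1, an inhibitor of differentiation induced by BMP signals, read 5.58 and 5.51 in Control and 7.04 and 7.05 in BT474-Var4 and differed by 1.50 ± 0.05 (adjusted p = 0.00165). ID3 (1.36), ID4 (1.01) and the inhibitory SMAD6 (1.09) rose with it, and INHBA, the activin subunit, was at least 5.83-fold higher. Of 33 ERK feedback and immediate early genes, 14 passed higher and 2 lower (7 to 9 higher without 1 array), with FOSB (1.45), FOS, DUSP2 (1.22) and EGR2 (1.14) called, as was CTGF. FOSB did not pass once Var4 A or Var4 B was left out, with an adjusted p of at most 0.0693.

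A list of dormancy-associated genes, chosen with the study and its results in view and so not independent of these arrays, had 14 tested members. Of these 3 passed higher and 4 lower, 2 were called higher, and the median was 0.04. Without 1 array, 2 or 3 passed higher and 1 to 3 lower. BHLHE41, the transcription factor also known as DEC2, read -1.62 and -1.93 in Control and 0.47 and 0.38 in BT474-Var4 and differed by 2.20 ± 0.13 (adjusted p = 0.00287). Its groups did not overlap, which held for every called probe. CDKN1A was the other call, and BHLHE40 passed with 0.75 but not without Control A or Control B (adjusted p up to 0.0678). Passed lower were NR2F1, MKI67, RARA (-0.46, second probe 0.03, lost without Control A or Control B) and BMP7 (-0.37, lost without 5 of the 6 arrays). MAPK14, the gene of p38, gave 0.11 (adjusted p = 0.318), NDRG1 0.05, BMP4 0.45 (adjusted p = 0.0558), GAS6 0.65 (adjusted p = 0.179) and POU5F1 -0.07. CDKN1B, named above, belongs to this list and did not pass.

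Hypoxia-induced genes had 13 of 41 passed higher, 1 lower and a median of 0.05 (7 to 12 higher without 1 array), with IGFBP3 the called member, and glycolysis genes had 3 of 25 higher and 2 lower (2 or 3 and at most 1). Of 24 retinoic acid pathway genes, 7 passed higher and 4 lower (3 higher and 2 to 5 lower without 1 array). DHRS3, a retinal reductase induced by retinoic acid, read 0.40 and 0.50 in Control and 1.91 and 2.0 in BT474-Var4 and differed by 1.51 ± 0.06 (adjusted p = 0.00215). STRA6, a retinol transporter, was at least 3.02-fold higher but lost the threshold when any 1 of the 4 arrays was left out (adjusted p up to 0.146). ALDH1A3, which makes retinoic acid, gave 1.16, with a second probe below background in BT474-Var4 at -0.57, and HOXB4 fell by 1.31 on the log2 scale. Of 13 pluripotency and stem cell genes 1 passed higher, ALDH1A3, which was called, and 3 passed lower (2 or 3 without 1 array), of which SOX2 was called (-1.40). Of 22 cancer-related long noncoding RNAs, 9 passed lower and 4 higher, and UCA1 (1.86) and LINC00152 (1.81) were called higher. Without Control A, Control B, Var4 A or Var4 B, 1, 2, 6 and 3 of these RNAs passed lower, and 0 did without a filter.

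The remaining lists held few calls, and brackets give the counts without 1 of the 4 arrays. Of all genes tested 26.4% passed in either direction. The share was 20.0% for glycolysis, 33.3% for EGFR family, 34.3% for Wnt and 37.5% for Notch genes. No conclusion about these lists is drawn from such shares. Acute-phase genes had 5 of 19 passed higher and 6 lower (3 or 4 and 2 or 3), with SERPINA3 (1.09) and SERPINA1 called. Notch genes had 3 of 24 higher and 6 lower (0 and 1 to 4), Wnt genes 6 of 35 in each direction (3 or 4 higher and 2 lower) with WNT6 (1.18) called, and EGFR family genes 2 of 15 higher and 3 lower (1 or 2 and at most 1). NRF2 targets had 6 of 31 higher and 4 lower (3 to 5 and 1) with AKR1B10 (1.32) called, metallothioneins 2 of 10 higher (also 2) with MT1F (1.23) called, and BCL2 family genes 5 of 21 higher and 2 lower (at most 1 in each direction). Tight junction genes had 11 of 31 higher and 2 lower (3 or 4 and at most 1) with L1CAM (1.15) called, and solute transporters 7 of 25 higher and 2 lower (2 to 4 and 1 or 2). L1CAM lost the threshold without Var4 A or Var4 B (adjusted p up to 0.072). For most lists the tested member with the brightest probe was also read, to show an abundant transcript beside the called ones. Of those not yet given, PERP (0.27), KRT15 (0.39) and TPM1 (0.54) passed higher, and LAMA5 (-0.31), BCL2L12 (-0.52) and HIST1H4C (-0.29) passed lower. PERP did not pass in any fit that left out an array (adjusted p up to 0.175), and KRT15, LAMA5 and HIST1H4C not when any 1 of the 4 arrays was left out (up to 0.0766, 0.1 and 0.0989). TPM1 and BCL2L12 were lost without Control A or Control B (up to 0.0628 and 0.0552). FAM172A, HLA-E, ADAM15, BAMBI, IER2, MAML1, RNF43, LDHA, GAPDH, MT2A, FTH1, CD24, RPS2, GAS5, CLDN4, SLC38A1, VWF and TUBB3 did not pass, with differences from -0.15 to 0.25. Second probes of GAS5 (0.51, adjusted p = 0.00794) and LDHA (-0.28, adjusted p = 0.0222) did pass.

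**Figure D5:**
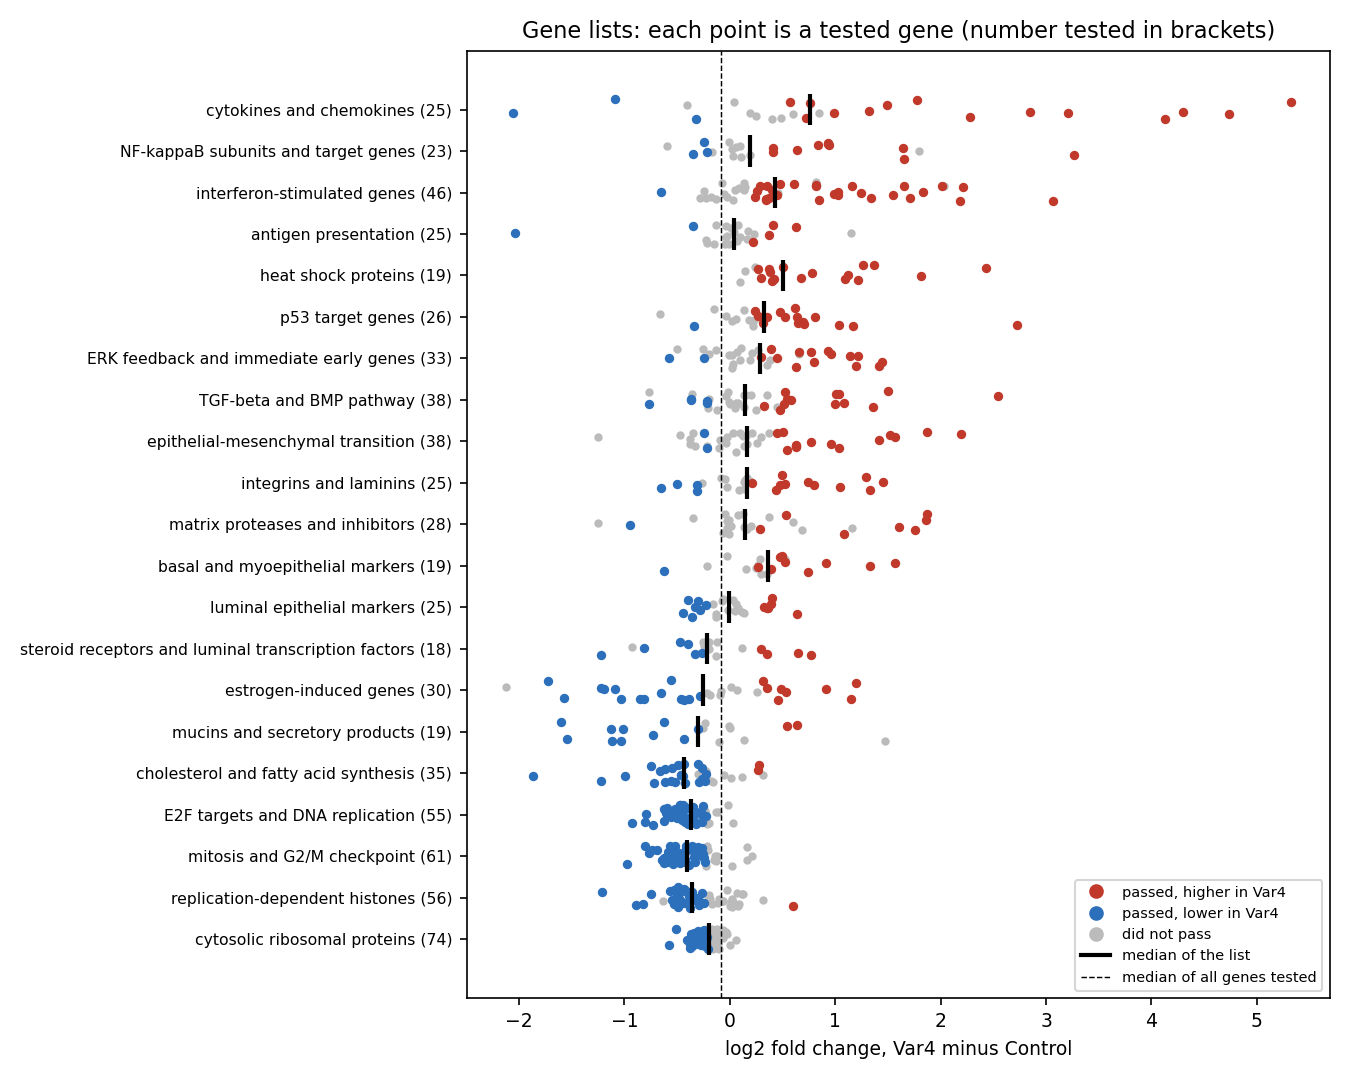
Log2 difference of BT474-Var4 minus Control on the horizontal axis for the tested members of 21 gene lists, 1 point per gene. Black bars are list medians and the dashed line is the median of all genes tested, -0.08. Cytokines (0.76), heat shock proteins (0.50) and interferon-stimulated genes (0.43) have the highest of the medians given in the text, and the cholesterol (-0.43) and mitosis (-0.41) lists the lowest.

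Cell type markers were checked beside these results. All 12 luminal breast markers were measured on all 4 arrays, 1 passed higher and 3 lower (0 and at most 1 without 1 array), and their summed level, the log2 of the summed signals of tested members, lay between 11.27 and 11.29 in Control and between 11.24 and 11.27 in BT474-Var4. Of 10 fibroblast markers, 7 were at background on all 4 arrays, including PDGFRA, LUM, COL1A2, COL3A1 and FAP, while DCN and COL1A1 were called higher, and the summed level of the 3 tested was 1.62 and 1.65 in Control and 2.50 and 2.45 in BT474-Var4. None of 6 tested leukocyte markers passed, at 1.05 and 1.06 against 1.09 and 0.98, and PTPRC, the common leukocyte antigen, gave -0.08 (adjusted p = 0.481). The B-cell marker MS4A1 and the macrophage marker CSF1R were at background on all 4 arrays. In contrast, PTPRC, CD3D, CD14 and ITGAM were well above background on all 4 arrays, and CD3E and NKG7 on 3. Of 3 tested endothelial markers 1 passed lower (1.64 and 1.76 against 1.52 and 1.59), and of 4 tested neuronal markers 2 passed higher (6.27 and 6.08 against 6.32 and 6.29). Which cells gave rise to the cytokine and interferon signals was not tested.

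The same fit allowed BT474-Var4 to be set against BT474-Var1 for the genes named by size. Both comparisons share the BT474-Var4 arrays, so the values are given side by side and no count of common directions is drawn from them. Relative to BT474-Var1, CRYAB was higher by 3.0 and CACNA1G by 2.0 in BT474-Var4, and TEX14 and MUC19 lay at -2.66 and -5.36. CRYAB read -2.71 and -2.22 in BT474-Var1 against -1.98 and -1.80 in Control, so its gap includes a BT474-Var1 level below Control. MUC19 read 2.44 and 2.57 in BT474-Var1 against -0.24 and -0.41 in Control. Its gap between the variants therefore includes a level in BT474-Var1 above that in Control. CCL2 differed between the variants by 0.84. TNFAIP3 (0.10, adjusted p = 0.331), NEURL3 (-0.09, adjusted p = 0.599) and KLK11 (0.05, adjusted p = 0.592) did not pass between the variants, which leaves their values side by side without showing that they are equal. The arrays of BT474-Var1 occupied slide column 2 and the other 4 arrays column 1, so column and variant cannot be told apart here. Within column 1, the Control arrays lay in rows 1 and 2 and the BT474-Var4 arrays in rows 3 and 4. Slide row and group therefore cannot be told apart in the main comparison either.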

How the data were processed

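RNA of Control, BT474-Var4 and BT474-Var1 cells, 2 arrays each, was hybridized with Cy3 to one-color Agilent arrays that, by their headers, shared 1 slide. The deposited files hold spot intensity on a linear scale, quantified by the authors with Agilent Feature Extraction 11.5.1.1 (submitters' processing notes), which subtracts background, and a table of log2 values that the authors shifted to each array's 75th percentile in GeneSpring. The table was used as an alternative. The design number in the file headers differs from the one in the study's methods, and gene names and hg19 probe positions are those of the files.

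Here the log2 of the processed intensity of 60901 non-control spots was averaged over the spots of a probe after outlier spots were dropped. The array's 75th percentile over these probe averages was then subtracted. Probes well above background on both arrays of Control or of BT474-Var4 were tested (31011 of 58201). A mean per group was fitted to 6 arrays with limma 3.58.1 in R 4.3.3 (3 residual degrees of freedom, 1.6 prior), and p-values were adjusted by Benjamini-Hochberg over all tested probes. For 18 tested probes an outlier spot left fewer than 4 of the compared arrays with a value. No array had saturated spots. Replicates correlated at r = 0.987 in both groups across probes, with a replicate SD of 0.18 in Control and 0.22 in BT474-Var4 over the tested probes. The number of arrays limits the precision. The study's methods give a one-way analysis of variance for multiple groups, which was run as an alternative, and lists were described by counts and medians with no test of a list.

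The comparison, the gene lists and the alternatives were chosen with earlier results of these data known. Named genes are the 12 largest rises and 12 largest falls measured on all 4 arrays without overlap, with a gene symbol, the 6 largest rises from and 6 largest falls to below background, up to 4 called members per direction and the brightest member of each list, the dormancy list, NR2F1-AS1, ESR1 and PGR. Further list members that the text names were picked after their values were seen. Upstream sequences are RefSeq's, and 12580 of 23973 tested gene names matched an entry. A few genes that the rule names are not reported here.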

Additional observations from a re-analysis of the deposited data

How the results depend on the processing

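The main fit made 989 probe calls, 501 higher and 488 lower. Requiring a probe well above background on all 4 arrays gave 584 calls, of which 191 were lower, and the methods' one-way analysis of variance with Benjamini-Hochberg adjustment gave 632, of which 260 were lower. Testing every probe without a filter gave 494 calls (306 higher, 188 lower). Normexp background correction, which adds an offset and shrinks fold changes of dim probes, gave 152 (94 higher, 58 lower), although more genes passed the threshold. Leaving out 1 array gave 689 to 991 calls, 405 to 499 of them higher and 280 to 548 lower. The share of calls that were higher was 50.7% in the main fit, 61.8% with quantile normalization and with normexp, 65.9% with the median shift and 67.3% with the filter on all 4 arrays. The deposited table gave 985 calls, the 4 compared arrays alone 947 and a trended robust variance 1141.

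Of 154 named genes 121 passed, and none of these changed direction in an alternative fit of the same probe. In every alternative that left out no array and tested their probe, 86 stayed past the threshold. The fit without a filter lost 35 and the analysis of variance 18. The filter on all 4 arrays compared only 96 of the 121, so some of the 86 were not tested in it. Another probe of the same gene turned the direction for ALDH1A3 (-0.57, adjusted p = 0.196), FGD5 (-0.70, adjusted p = 0.139), HIST1H2AG (0.41, adjusted p = 0.068), LAMA5 (0.09, adjusted p = 0.548), RARA (0.03, adjusted p = 0.824) and UMODL1 (-0.68, adjusted p = 0.104), and for HIST1H4C it gave 0 (adjusted p = 0.976). The cause was not tested. List medians under quantile normalization and the median shift were added after seeing the data.

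Whether the replicate letters pair the groups is not given. Same-letter deviations of Control and BT474-Var4 correlated at 0.0611, so little shift shared by a letter was seen. With the replicate letter as a block 915 probes were called, 878 of them shared with the main fit. In that fit 5406 probes passed, against 7997 in the main fit, and 8 of the 121 named genes no longer passed. Depth is limited by signal over background: 47.6% to 57.5% of probes per array were well above it, and dim genes have only bounds. With 2 arrays per group and 1 slide, differences between cultures were not measured.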

Other observations

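By type of transcript, 290 of 14252 protein-coding genes matched to RefSeq were called higher and 163 lower (2.03% and 1.14%). Long noncoding RNAs were called 31 of 1373 times in each direction (2.26%), and names without a match in RefSeq, whose median level was -1.96 against 1.43 for protein-coding genes, were called lower in 1.98% and higher in 1.07%. Names without a match thus held 151 of the 367 genes called lower.

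Calls were spread over the genome. Chromosome medians of the difference ran from -0.134 on chromosome 9 to -0.003 on chromosome 21, where 12 of 316 genes (3.8%) were called higher and 3 lower. Under the median shift the same medians were -0.006 and 0.125. In windows of 25 neighboring genes measured on all 4 arrays, the middle of the distribution ran from -0.226 to 0.136 (2.5th to 97.5th percentile). The highest window median was 0.526, on chromosome 7 between positions 13935632 and 20629251 (hg19), where 10 of 25 genes passed higher and 2 lower. A window on chromosome 21 between 40701282 and 43562774 had a median of 0.342, with 13 passed higher and 2 lower. The lowest medians were -0.456 in a histone gene cluster on chromosome 6 (15 of 25 passed lower) and -0.452 on chromosome 9 between 3671558 and 14992816 (13 passed lower, 1 higher). These windows were picked as the extremes of 20346 overlapping ones, and DNA copy number was not measured here.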
